A study of Mus musculus with 9 samples.

Results

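The cytosolic ribosomal protein genes, which encode the protein part of the ribosome, were examined in the colon of mice with colitis that had received human mesenchymal stem cells. They were taken from the gene table by name, as protein-coding genes whose symbol was Rpl or Rps followed by a digit, or *Rpsa*, *Rplp0*, *Rplp1* or *Rplp2*, without the S6 kinases and *Rps19bp1*. This gave 108 of the 38087 genes of the table. Of these, 77 were the canonical genes, 46 of the large (60S) and 31 of the small (40S) subunit. Another 9 were paralogs (*Rpl3l*, *Rpl7l1*, *Rpl10l*, *Rpl22l1*, *Rpl36al*, *Rpl39l*, *Rps4y2*, *Rps12l1* and *Rps27l*), and 22 were copies whose symbols end in -ps and which the table nevertheless types as protein-coding. A total of 92 averaged 10 or more normalized reads and were compared, among 15040 such genes in all. They were the 77 canonical genes, 6 paralogs and 9 copies.

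All mice were male C57BL/6 aged 10 to 12 weeks with colitis induced by dextran sulfate sodium (DSS), a salt that damages the colonic epithelium when drunk. On the day before tissue was taken, the mice received into a vein either human adipose tissue-derived mesenchymal stem cells (AD-MSC), human umbilical cord tissue-derived mesenchymal stem cells (UC-MSC) or phosphate-buffered saline alone (PBS, the control). From 3 mice per group, 9 libraries in all, the RNA of the middle colon was sequenced to ask how each cell source changes gene expression in the inflamed colon soon after injection. The values compared were the 3 group means that the authors made for each gene. The spread between mice is therefore unknown, no test between groups was possible, and every difference below stands without a replicate check. The only error given is a 95% counting interval, which follows from the number of reads and covers counting error alone.

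The ribosome is made of ribosomal RNA and about as many different proteins as there are canonical genes here, nearly all present as a single copy. The 40S subunit binds and decodes the messenger RNA, and the 60S subunit joins amino acids and holds the tunnel through which the new protein leaves. Their messenger RNAs start with a C followed by a run of pyrimidines, the 5′ terminal oligopyrimidine (TOP) tract, through which the growth kinase mTORC1 and the RNA-binding protein *Larp1* control their translation and stability. Growing and dividing cells, such as those of the colonic crypt, need many ribosomes.

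Pyrimidine runs were found at the annotated starts of many members. RefSeq (GRCm38.p6) listed 66 starts for 56 of the 77 canonical genes, each with 250 bases before and 50 bases from the start. In 20 of these 66 (30.3%) the start lay in a run of at least 6 C or T that held the first transcribed base or the base before it, against 10.7% of all 32851 listed promoters of the same length. A run of at least 10 C or T within 50 bases of the start on the coding strand was found in 71.2% of them, against 18.1% of all promoters and 16.0% of the 75 listed for mitochondrial ribosomal protein genes. The windows that follow run from 15 bases before the start to the fifteenth base of the transcript and are shown for genes that span the differences measured with UC-MSC, from the lowest (*Rps18*) to the highest (*Rpl28*), with the pyrimidine run in capitals.
Rps18: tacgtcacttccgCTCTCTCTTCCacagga
Rpl14: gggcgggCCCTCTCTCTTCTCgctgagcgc
Rps6: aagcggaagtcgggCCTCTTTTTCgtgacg
Rpl35: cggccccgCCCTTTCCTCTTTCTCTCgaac
Rpl7a: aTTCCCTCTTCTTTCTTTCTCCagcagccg
Rplp2: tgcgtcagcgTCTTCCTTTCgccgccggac
Rpl28: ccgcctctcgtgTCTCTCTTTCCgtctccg
On GRCm38 these windows lie at chr17:33955651-33955680 (minus strand) for *Rps18*, chr9:120571502-120571531 (plus strand) for *Rpl14*, chr4:86857353-86857382 (minus strand) for *Rps6*, chr2:39005117-39005146 (minus strand) for *Rpl35*, chr2:26910792-26910821 (plus strand) for *Rpl7a*, chr7:141447636-141447665 (plus strand) for *Rplp2* and chr7:4792950-4792979 (plus strand) for *Rpl28*. The runs were 10 to 21 bases long.

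Further motifs were counted on both strands of the 300 bases. CCGGAAG, the core bound by ETS factors such as GABP, was in 36.4% of the members' promoters, against 34.7% for mitochondrial ribosomal protein genes and 8.86% of all promoters. AAGATGG, the core bound by YY1, was in 11 of 66 of the members' promoters (16.7%), against 13 of 75 promoters of mitochondrial ribosomal protein genes and 6.34% of all promoters, and the motifs can overlap by AAG. These are matches of letters and not measured binding sites.

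Ribosomal protein genes were lower in both MSC groups than in control, and lowest with UC-MSC. Against control, 87 of the 92 genes were lower with AD-MSC, against a background of 51.0% of all genes compared, and the median log2 difference was -0.32 (quartiles -0.42 and -0.18), a 1.24-fold lower level. With UC-MSC 89 of 92 were lower, against a background of 51.8%, and the median was -0.49 (quartiles -0.66 and -0.35), a 1.41-fold lower level. Over all genes compared the medians were -0.01 for AD-MSC and -0.02 for UC-MSC. The differences were small for each gene and widely shared. At least 1.2-fold lower were 57 genes with AD-MSC, against a background of 22.1%, and 82 with UC-MSC, against 27.2%. At least 1.5-fold lower were 8 with AD-MSC (background 6.67%) and 32 with UC-MSC (background 10.1%). At least 2-fold lower were 1 with AD-MSC (background 2.04%) and 4 with UC-MSC (background 2.74%). No member was 1.2-fold higher in either MSC group. Lower by more than the counting interval were 82 genes with AD-MSC, where 28.2% of all genes were, and 83 with UC-MSC, where 30.5% were. That interval narrows as reads increase. Its median standard error with AD-MSC was 0.055 for the members and 0.097 for all genes. With UC-MSC it was 0.068 and 0.113. Members could thus pass this limit at smaller differences, and these shares are not like for like. Both comparisons use the same control means, so a low or high control value moves both at once.

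**Figure D1:**
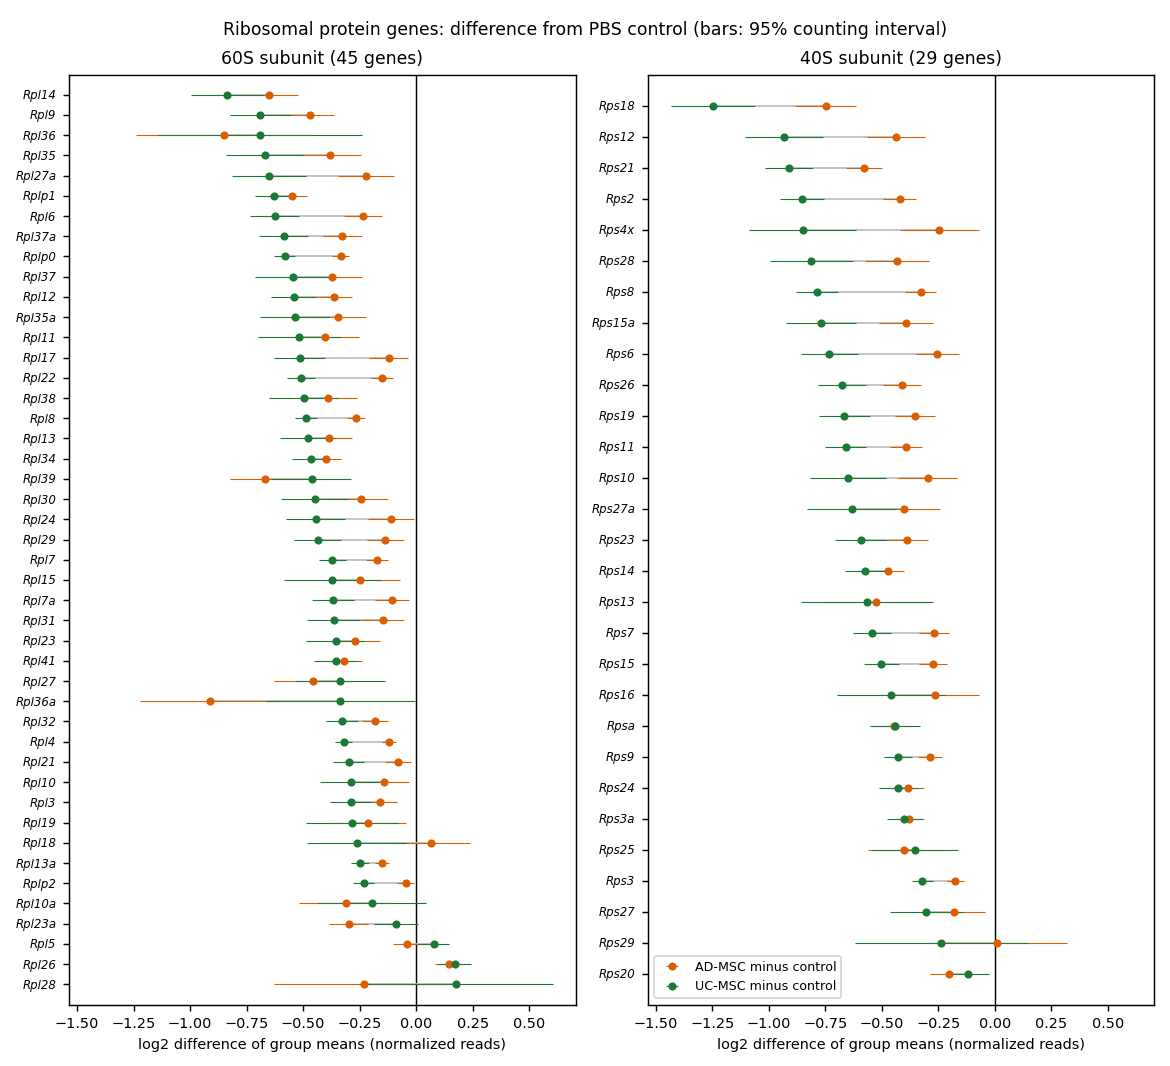
Log2 difference from PBS control (horizontal axis) of 74 canonical ribosomal protein genes, 45 of the 60S subunit on the left and 29 of the 40S subunit on the right, for AD-MSC (orange) and UC-MSC (green); bars are 95% counting intervals and grey lines join the 2 values of a gene. Nearly all points lie left of 0 (71 genes for AD-MSC and 71 for UC-MSC), and the green points of the 40S genes lie farthest left.

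Compared directly, 77 of the 92 genes were lower with UC-MSC than with AD-MSC (background 51.2%), with a median of -0.20 (quartiles -0.32 and -0.09) against -0.01 over all genes. Of these, 29 were at least 1.2-fold lower (background 22.9%), 2 at least 1.5-fold (background 7.58%) and 0 at least 2-fold lower (background 2.32%), while 55 were lower by more than the counting interval (background 26.7%). Here too the members' intervals were narrower, with a median standard error of 0.068 against 0.111 for all genes. The count at 1.2-fold depended on the scaling between groups. With all groups scaled to the same total of normalized reads it was 53, where 32.2% of all genes then passed.

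As a share of all normalized reads, the 77 canonical genes made up 0.884% with AD-MSC, 0.725% with UC-MSC and 1.07% in control. Per kilobase of transcript, which allows genes to be compared with each other, their median level was 522 normalized reads with AD-MSC, 471 with UC-MSC and 647 in control. Levels differed far more between genes than between groups. The highest was *Rplp2*, an acidic protein of the stalk that recruits elongation factors, with 7296 reads per kilobase with AD-MSC, 6415 with UC-MSC and 7532 in control. It was followed by *Rpl13a*, *Rpl22* and *Rpl8*, which had 3870 to 4249 reads per kilobase in control. By the mean of the 3 groups, the lowest was *Rpl28* with 34.0 reads per kilobase with AD-MSC, 45.0 with UC-MSC and 39.8 in control, next to *Rpl36*, *Rpl24*, *Rps16* and *Rpl36a* with 88.9 to 136 in control. For 4 of these 5 genes (all but *Rpl24*) most reads of the gene and its copies lay on copies elsewhere in the genome. *Rps29* came next, with 118 in control, and had no copy in the table. The value of *Rpl24* rests on an annotated transcript of 4920 bases, the longest among the members. The ranks of the other genes likewise rest on the shortest principal transcript, such as 474 bases for *Rpl22*. Other transcripts were not weighed. Across the 77 genes, the difference from control and the mean level had a Spearman rho of 0.30 for AD-MSC and 0.13 for UC-MSC, a description over genes of the same 9 libraries.

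**Figure D2:**
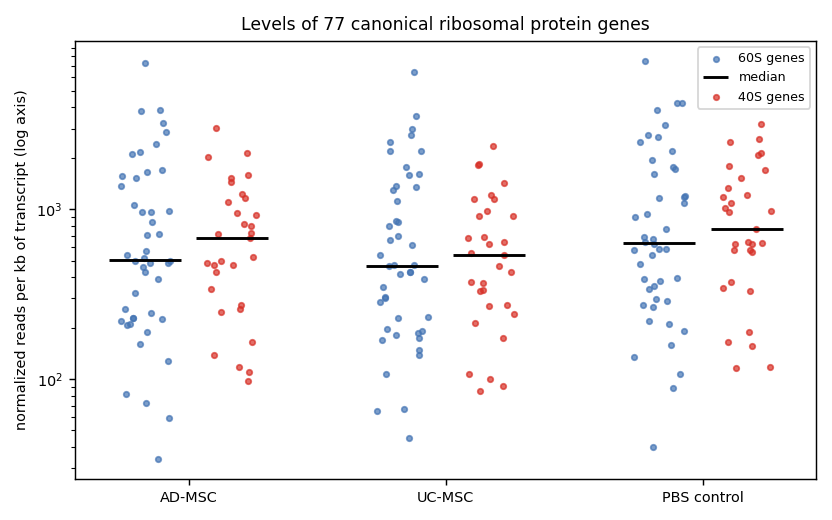
Normalized reads per kilobase of transcript (logarithmic vertical axis) of the 77 canonical genes with AD-MSC, with UC-MSC and in PBS control; each point is 1 gene, blue for the 60S and red for the 40S subunit, and black bars are medians. The 60S genes had medians of 505, 467 and 636 and the 40S genes 679, 542 and 768 in that order of groups, and single genes reached from 34.0 to 7532.

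The small subunit differed more than the large one. The 31 genes of the 40S subunit had a median of -0.38 with AD-MSC and -0.59 with UC-MSC, and the 46 genes of the 60S subunit -0.25 with AD-MSC and -0.40 with UC-MSC. With UC-MSC all 31 genes of the 40S and 43 of 46 genes of the 60S were lower than in control, and 16 against 8 were at least 1.5-fold lower. Of all genes compared 51.8% were lower with UC-MSC and 10.1% at least 1.5-fold lower. Between the MSC groups, the 40S median was -0.27 and the 60S median -0.17 (UC-MSC minus AD-MSC). The difference between the subunits was not tested.

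*Rps18*, a protein of the head of the 40S subunit (chromosome 17, 33951999 to 33956001, minus strand), was the lowest canonical gene with UC-MSC. It had 192 normalized reads with AD-MSC and 136 with UC-MSC, against 322 in control. This was a log2 difference of -0.75 ± 0.14 with AD-MSC and -1.25 ± 0.19 with UC-MSC (95% counting interval), a 2.37-fold lower level for UC-MSC. Its gene overlaps Vps52. *Rps12* (chromosome 10, 23785211 to 23787195) had 233 reads with AD-MSC and 166 with UC-MSC, against 316 in control, and *Rps21* (chromosome 2, 180257377 to 180258445) had 569 and 452 against 850 in the same order. Both were thus lower by 0.91 to 0.93 on the log2 scale with UC-MSC.

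Several proteins that line the path of the messenger RNA were among the lowest. *Rps2*, at the entry of the mRNA channel, had 730 reads with AD-MSC and 541 with UC-MSC, against 977 in control. *Rps28*, beside the mRNA exit, had 195 with AD-MSC and 150 with UC-MSC, against 263 in control. Of the 7 genes of this region (*Rps2*, *Rps3*, *Rps15*, *Rps23*, *Rps26*, *Rps27a* and *Rps28*), all 7 were lower with both cell sources, with medians of -0.40 for AD-MSC and -0.63 for UC-MSC. At least 1.5-fold lower with UC-MSC were 5 of them, where 34.8% of all members and 10.1% of all genes were. *Rps3*, which guards the mRNA entry, differed least of the 7, at -0.18 with AD-MSC and -0.32 with UC-MSC. Of all 92 members 94.6% were lower with AD-MSC and 96.7% with UC-MSC, against 51.0% and 51.8% of all genes compared. Counts of lower genes in this and the following groups of members thus do not set a group apart. *Rps27a*, which is made fused to ubiquitin, had 160 reads with AD-MSC and 136 with UC-MSC, against 211 in control.

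Among 11 genes of the head and beak of the 40S and the neighbouring *Rpsa*, 10 were lower with AD-MSC (median -0.35) and all 11 with UC-MSC (median -0.46). *Rps19*, the first gene found mutated in human Diamond-Blackfan anaemia, had 507 reads with AD-MSC and 408 with UC-MSC, against 647 in control. *Rps20* and *Rps29* differed least with UC-MSC. *Rps20* had 611 reads with AD-MSC and 648 with UC-MSC, against 704 in control, and the small zinc-binding *Rps29* had 46.3 and 39.0 against 46.0, within its counting interval in both comparisons. *Rps6*, the substrate of the S6 kinases downstream of mTORC1, had 458 reads with AD-MSC and 329 with UC-MSC, against 547 in control, a log2 difference of -0.26 with AD-MSC and -0.73 with UC-MSC.

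In the large subunit, the stalk that binds elongation factors was lower, as nearly all members were. All 4 of its genes (*Rplp0*, *Rplp1*, *Rplp2* and *Rpl12*) were lower with both cell sources, with medians of -0.35 for AD-MSC and -0.56 for UC-MSC. *Rplp0*, its base and a common reference gene in quantitative PCR, had 2873 reads with AD-MSC and 2421 with UC-MSC, against 3620 in control, a log2 difference of -0.33 with AD-MSC and -0.58 ± 0.05 with UC-MSC. *Rplp1* had 850 with AD-MSC and 802 with UC-MSC, against 1242 in control. *Rplp2* differed least, with 3072 and 2701 against 3171, at -0.05 with AD-MSC and -0.23 with UC-MSC, and both values turn positive (0.13 and 0.17) once the median of genes of like length is taken off.

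Of 5 genes around the peptidyl transferase centre and the tRNA path (*Rpl3*, *Rpl8*, *Rpl10*, *Rpl10a* and *Rpl27*), all 5 were lower with both cell sources, with medians of -0.27 for AD-MSC and -0.29 for UC-MSC. *Rpl8* had 2738 reads with AD-MSC and 2347 with UC-MSC, against 3293 in control. *Rpl10*, one of the last proteins added to the 60S subunit, had 345 with AD-MSC and 311 with UC-MSC, against 381 in control. Of 9 genes at the peptide exit tunnel and its rim, 8 were lower with each cell source, with medians of -0.15 for AD-MSC and -0.37 for UC-MSC. *Rpl4*, whose loop reaches into the tunnel, had the most reads of all members, 4424 with AD-MSC and 3849 with UC-MSC, against 4807 in control.

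A few genes of the large subunit went the other way. *Rpl26* (chromosome 11, 68901583 to 68906989), a protein of the tunnel rim that in human cells also binds the messenger RNA of p53, had 1144 reads with AD-MSC and 1164 with UC-MSC, against 1035 in control. Its log2 difference was 0.15 with AD-MSC and 0.17 ± 0.07 with UC-MSC, beyond the counting interval in both comparisons. *Rpl5* and *Rpl11* form the 5S ribonucleoprotein, which when free binds the p53 inhibitor *Mdm2*. *Rpl5* had 1170 reads with AD-MSC and 1270 with UC-MSC, against 1203 in control. Its difference of 0.08 with UC-MSC changed sign to -0.06 when groups were scaled to equal totals. *Rpl11* had 173 with AD-MSC and 160 with UC-MSC, against 229 in control, so the partners of this particle did not differ alike. Besides *Rpl26* and *Rpl5*, only *Rpl28* was above control with UC-MSC, at 0.18 and within its counting interval. With AD-MSC the members above control included *Rpl18* (0.06), *Rps29* (0.01) and the copy *Rpl27-ps3* (0.21), all of them within their counting intervals.

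Besides *Rps18*, the canonical genes lowest with AD-MSC were of the large subunit. *Rpl36a* had 34.9 reads with AD-MSC and 52.0 with UC-MSC, against 65.6 in control, a log2 difference of -0.91 with AD-MSC and -0.33 with UC-MSC. *Rpl36* had 22.7 with AD-MSC and 25.4 with UC-MSC, against 41.0 in control. *Rpl39*, a very small protein of the tunnel, had 151 with AD-MSC and 174 with UC-MSC, against 240 in control. *Rpl14* had 229 with AD-MSC and 201 with UC-MSC, against 358 in control. Of the 15 members that were higher with UC-MSC than with AD-MSC, the 5 highest were *Rpl36a* (0.58), *Rpl28* (0.41), the copy *Rpl12-ps1* (0.30), *Rpl23a* (0.21) and *Rpl39* (0.21). The 5 lowest in that comparison were the copy *Rpl27-ps3* (-0.67), *Rps4x* (-0.60), *Rps12l1* (-0.57), the copy *Rps10-ps1* (-0.51) and *Rps18* (-0.50). *Rps4x*, which codes for a protein of the 40S body (chromosome X, 102184941 to 102189394), had 136 reads with AD-MSC and 89.2 with UC-MSC, against 161 in control. Of the 4 X-linked members (*Rps4x*, *Rpl10*, *Rpl36a* and *Rpl39*) all 4 were lower with both cell sources, as nearly all members were.

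Of the 11 members whose human counterparts are mutated in Diamond-Blackfan anaemia and which were listed here, 10 were lower with AD-MSC (median -0.30) and 9 with UC-MSC (median -0.52). The exceptions were *Rpl26* in both comparisons and *Rpl5* with UC-MSC.

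The paralogs with enough reads were lower too, all 6 with both cell sources. *Rpl22l1* (chromosome 3, 28805436 to 28807352), which can take the place of *Rpl22*, had 91.9 reads with AD-MSC and 77.4 with UC-MSC, against 155 in control. Its log2 difference was -0.76 ± 0.20 with AD-MSC and its level was 2.01-fold lower with UC-MSC, while *Rpl22* itself was at -0.15 with AD-MSC and -0.51 with UC-MSC. *Rps27l*, a p53 target gene in human cells, had 199 with AD-MSC and 181 with UC-MSC, against 284 in control, at -0.51 with AD-MSC and -0.65 with UC-MSC, and *Rps27* was at -0.18 and -0.30 in that order. *Rpl7l1* was at -0.36 with AD-MSC and -0.50 with UC-MSC, against -0.17 and -0.37 for *Rpl7*. In contrast *Rpl36al*, which encodes nearly the same protein as *Rpl36a*, was at -0.29 with AD-MSC and -0.21 with UC-MSC. *Rps4y2* was at -0.24 with AD-MSC and -0.45 with UC-MSC, and *Rps12l1* at -0.23 with AD-MSC and -0.79 with UC-MSC. *Rpl3l*, *Rpl10l* and *Rpl39l* were under the minimum, with at most 2.29, 1.87 and 4.33 raw reads on average in any group, and are not compared.

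Many ribosomal protein genes have processed copies in the genome, and reads from such near-identical sequences can be placed on the wrong one. For 53 of the 77 canonical genes the table held rows named after them with a -ps suffix. In 22 cases at least 20% of the control reads of the gene and its copies lay on the copies. These shares reached 96.0% for *Rpl28*, 86.7% for *Rpl19*, 85.8% for *Rpl36*, 84.7% for *Rpl10a*, 84.3% for *Rpl36a* and 80.6% for *Rps16*. The reads of the copies were lower as well. Of the copy sums with at least 10 normalized reads, 40 of 43 were lower with AD-MSC (median -0.40) and 41 of 41 with UC-MSC (median -0.56). When each canonical gene was summed with its copies, an alternative chosen after seeing the data, 74 of 77 sums were lower with AD-MSC and 76 of 77 with UC-MSC, with medians of -0.32 for AD-MSC and -0.51 for UC-MSC. Between the MSC groups 70 of 77 sums were lower with UC-MSC (median -0.20).

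Summing changed the values of single genes more than that of the group. *Rpl28*, at 0.18 with UC-MSC alone, was at -0.41 with its copies, and *Rpl5*, at 0.08 alone, was at -0.10. *Rpl36a*, at -0.91 with AD-MSC alone, was at -0.34 with its copies, and *Rpl36*, at -0.85 alone, at -0.50. *Rps18* was at -0.70 with AD-MSC and -1.13 with UC-MSC after summing, and *Rpl26* stayed above control at 0.14 with AD-MSC and 0.16 with UC-MSC. *Rpl14*, with 77.4% of control reads on its copy, went from -0.65 to -0.42 with AD-MSC and from -0.84 to -0.54 with UC-MSC. *Rps6*, with 59.8% on copies, went from -0.26 to -0.32 with AD-MSC and from -0.73 to -0.52 with UC-MSC. The direction of *Rpl28* and *Rpl5* with UC-MSC is thus uncertain. So are the sizes for genes with most reads on copies, among them *Rpl36a*, *Rpl36*, *Rpl14* and *Rps6*. The 24 canonical genes with no such copy in the table were lower in 23 cases with AD-MSC (median -0.27, background 51.0%) and in all 24 with UC-MSC (median -0.44, background 51.8%).

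**Figure D3:**
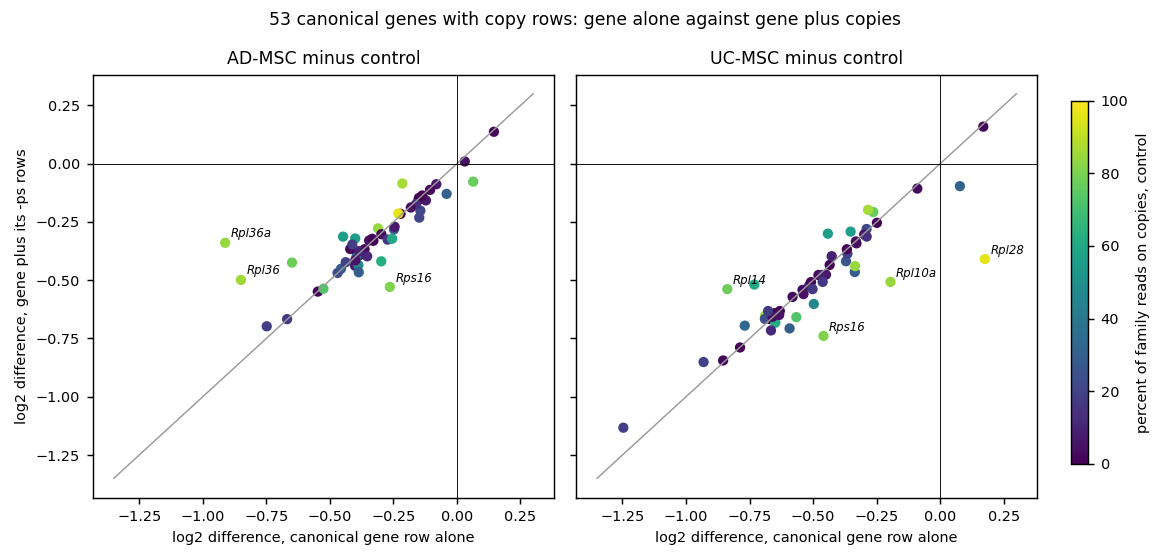
Log2 difference from PBS control of 53 canonical genes alone (horizontal axis) and of the same genes summed with their copies (vertical axis) for AD-MSC on the left and UC-MSC on the right; colour gives the percent of control reads on the copies and the grey line marks equal values. Most genes lie near the line, and genes with most reads on copies, such as *Rpl36a* (-0.91 alone and -0.34 summed, AD-MSC) and *Rpl28* (0.18 alone and -0.41 summed, UC-MSC), lie away from it.

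Of the 22 copies that the table types as protein-coding, 9 had enough reads. The lowest was *Rpl13a-ps1* (chromosome 19, 50030124 to 50030735) with 8.18 reads with AD-MSC and 8.35 with UC-MSC, against 24.5 in control. *Rps10-ps1* (chromosome 3, 95622278 to 95622775) had 185 with AD-MSC and 130 with UC-MSC, against 264 in control, and with *Rpl13a-ps1*, *Rps18* and *Rpl22l1* it made up the 4 members at least 2-fold lower with UC-MSC. The other 13 copies were under the minimum, namely *Rpl7a-ps3*, *Rpl7a-ps5*, *Rpl7a-ps8*, *Rpl10a-ps2*, *Rpl13-ps3*, *Rpl21-ps4*, *Rpl21-ps6*, *Rpl23a-ps1*, *Rpl23a-ps3*, *Rpl28-ps4*, *Rps2-ps5*, *Rps2-ps6* and *Rps12-ps3*. Some members host snoRNA genes, and 43 canonical genes overlapped another row of the table. Their medians were -0.26 with AD-MSC and -0.44 with UC-MSC, against -0.33 and -0.51 for the 34 that overlapped none.

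Ribosomal protein genes have short transcripts, with a median of 751 bases against 2863 for other protein-coding genes, and short genes as a class were lower in the MSC groups. Protein-coding genes outside the members had a median of -0.18 with AD-MSC and -0.40 with UC-MSC up to 500 bases, and of -0.16 and -0.20 from there to 1000 bases. Above 5000 bases they were at 0.07 with AD-MSC and 0.08 with UC-MSC. In the same classes the canonical genes were at -0.33 with AD-MSC and -0.50 with UC-MSC up to 500 bases (18 genes), and at -0.33 and -0.52 from there to 1000 bases (41 genes). With the median of other genes of like length taken off each member, an alternative chosen after seeing the data, the members' median was -0.17 with AD-MSC and -0.26 with UC-MSC, and 77 and 81 of 92 were below 0. By the same measure 24 members were at least 1.2-fold lower with AD-MSC, where 19.4% of the other protein-coding genes were, and 46 with UC-MSC, where 24.3% were. For UC-MSC against AD-MSC 18 members (19.6%) were, a share near the 21.1% of the other protein-coding genes. Members that lay below control by more than their counting interval and then above 0 included *Rpl7a*, *Rpl10*, *Rpl17*, *Rpl21*, *Rpl22*, *Rpl29*, *Rpl31* and *Rplp2* with AD-MSC, and *Rpl31*, *Rpl36a*, *Rpl41*, *Rplp2* and *Rps27* with UC-MSC. Of those within their counting interval, *Rpl10a*, *Rpl23a* and *Rps29* also changed sign with UC-MSC. The part of transcript length in the result was not tested.

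**Figure D4:**
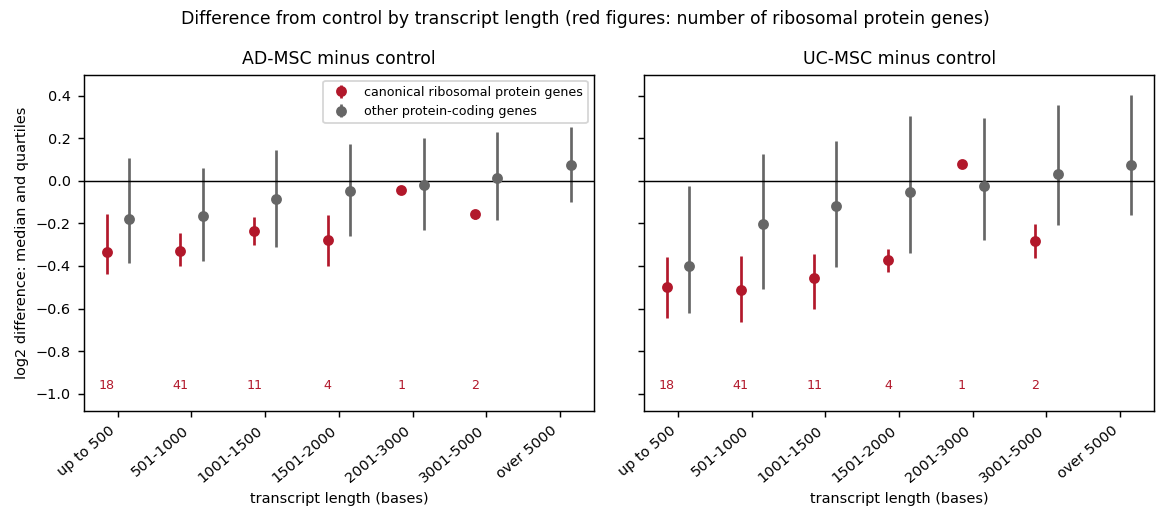
Median log2 difference from PBS control (vertical axis, bars are quartiles over genes) by class of transcript length in bases (horizontal axis) for AD-MSC on the left and UC-MSC on the right; red points are canonical ribosomal protein genes, with their number in red, and grey points other protein-coding genes. Grey medians are lowest for the shortest class (-0.18 for AD-MSC and -0.40 for UC-MSC), and red medians lie below them in the 4 shortest classes.

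The reads of cell type markers also differed between groups, and in bulk tissue fewer cells of a type and less RNA per cell cannot be told apart. Of the 7 crypt and proliferation markers (*Lgr5*, *Ascl2*, *Axin2*, *Mki67*, *Top2a*, *Ccnb1* and *Cdk1*) the sums were 3476 normalized reads with AD-MSC, 1676 with UC-MSC and 3459 in control, with *Ascl2* at the floor of 1 normalized read in all groups. Most of these reads were of *Mki67* and *Top2a*. Only 5 of the markers had enough reads to be compared. With UC-MSC 4 of the 5 were lower than control and 1 was higher, at 0.34. With AD-MSC 3 were lower and 2 higher, up to 0.78. Of the proliferation genes, *Mki67* had 2442 reads with AD-MSC and 1133 with UC-MSC, against 2443 in control, and *Top2a* had 839 with AD-MSC and 428 with UC-MSC, against 855 in control. The 6 fibroblast markers summed to 9428 reads with AD-MSC, 17714 with UC-MSC and 8230 in control, and all 6 were higher with UC-MSC. So were the 6 smooth muscle markers, which summed to 74137 with AD-MSC, 100958 with UC-MSC and 64319 in control. The 5 B cell markers, each under 40 reads, summed to 18.7 with AD-MSC, 71.4 with UC-MSC and 162 in control. The 4 endothelial markers were all higher with both cell sources and summed to 1076 with AD-MSC, 1500 with UC-MSC and 824 in control. Markers of macrophages and monocytes summed to 1164, 2202 and 1415 reads in the same order of groups, those of neutrophils to 22.6, 117 and 35.4, and those of the pancreatic acinus to 655, 1399 and 962. Of the 6 macrophage and monocyte markers 4 were lower than control with AD-MSC, and 1, at -0.43, with UC-MSC. Only 2 of 4 neutrophil and 3 of 5 pancreatic markers had enough reads to be compared. Of these 3 pancreatic markers 2 were lower with AD-MSC, and all were higher with UC-MSC (median 3.52), a size that the sum does not show. Adipocyte markers had 217 with AD-MSC, 184 with UC-MSC and 377 in control. Colonocyte markers were high in all groups and summed to 48881 with AD-MSC, 47103 with UC-MSC and 37375 in control, as were goblet cell markers with 134768 with AD-MSC, 130540 with UC-MSC and 117344 in control. The 7 colonocyte markers did not go one way. With AD-MSC 1 was lower than control, at -0.89, and with UC-MSC 3 were lower, down to -1.38. The 6 markers of all epithelium summed to 57125 with AD-MSC, 62815 with UC-MSC and 63013 in control. Among them 3 were lower and 3 higher than control with AD-MSC, and 2 were lower and 4 higher with UC-MSC. The part of these cell types in the ribosomal protein result was not tested. The libraries of the UC-MSC group were also the shallowest, with summed raw group means of 5.03e+06 reads against 8.22e+06 with AD-MSC and 7.30e+06 in control.

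Other genes of protein synthesis were lower as well. The background for the counts of lower genes in the lists below was 51.0% of all genes compared with AD-MSC and 51.8% with UC-MSC. For UC-MSC against AD-MSC it was 51.2%. Mitochondrial ribosomal protein genes, whose products form a separate ribosome of bacterial type, were lower for 71 of 75 with AD-MSC (median -0.27) and 72 of 75 with UC-MSC (median -0.48). The lowest with UC-MSC was *Mrpl34* at -1.23, followed by *Mrpl45* at -1.06. Genes of ribosome biogenesis and the nucleolus were lower for 37 of 38 with AD-MSC (median -0.53) and for all 38 with UC-MSC (median -0.49), so that they, unlike the ribosomal proteins, had like medians with both cell sources. Between the MSC groups their median was 0.03, with 17 of 38 lower with UC-MSC. Examples are the snoRNP proteins *Nhp2* (-0.87 with AD-MSC and -1.02 with UC-MSC) and *Nop58* (-0.62 and -0.82), and *Wdr12* (-0.59 and -1.14), which matures the 60S subunit. *Rrp9*, a protein of the U3 snoRNP, was among the 21 that were higher with UC-MSC than with AD-MSC (-0.92 with AD-MSC and -0.56 with UC-MSC). RNA polymerases I and III, which make the ribosomal and transfer RNAs, were lower for 14 of 20 with AD-MSC (median -0.18) and 19 of 20 with UC-MSC (median -0.35), among them *Polr1b* (-0.67 and -0.93).

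Initiation factors were lower for 30 of 32 with AD-MSC (median -0.24) and 31 of 32 with UC-MSC (median -0.25), and elongation factors for 7 of 8 (median -0.24) and 8 of 8 (median -0.33). Cytosolic aminoacyl-tRNA synthetases were at -0.30 with AD-MSC and -0.23 with UC-MSC (19 and 16 of 20 lower). Away from translation, nuclear genes of oxidative phosphorylation were lower for 34 of 35 with AD-MSC (median -0.23) and all 35 with UC-MSC (median -0.51), and proteasome genes for 36 of 39 (median -0.26) and 35 of 39 (median -0.22). The median transcript was 680 bases for oxidative phosphorylation, 1512 for the proteasome and 2691 for ribosome biogenesis. A set of 15 structural and housekeeping genes had medians of -0.25 with AD-MSC and -0.09 with UC-MSC. Medians below control were thus shared by several lists, and differences between lists were not tested.

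**Figure D5:**
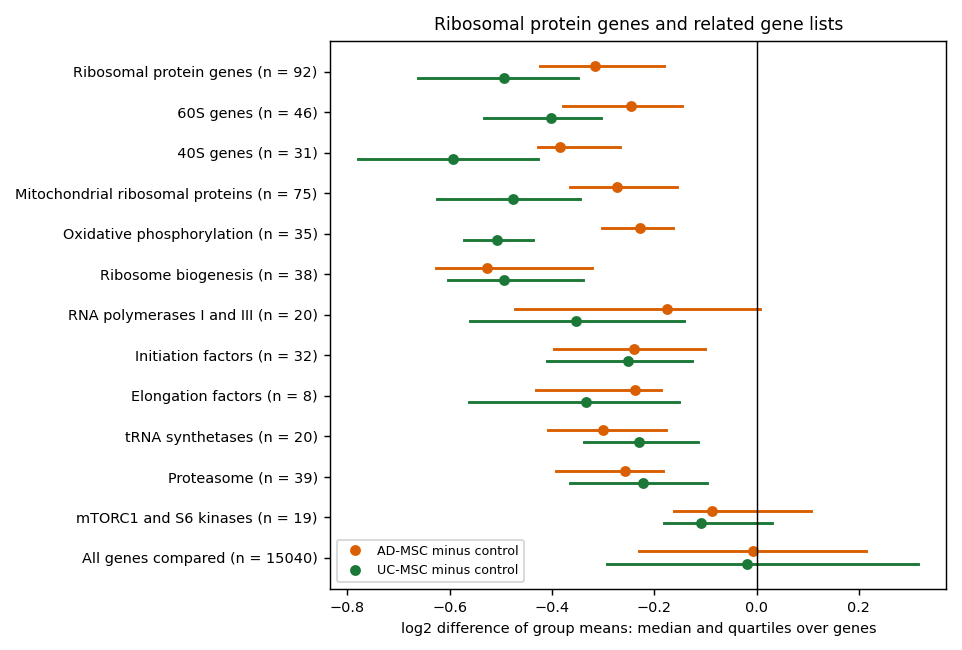
Median log2 difference from PBS control (horizontal axis, points) with quartiles over genes (lines) for ribosomal protein genes and related lists, AD-MSC in orange above UC-MSC in green; n is the number of genes with at least 10 normalized reads on average. Ribosomal, mitochondrial ribosomal and oxidative phosphorylation genes lie lower with UC-MSC than with AD-MSC, whereas ribosome biogenesis genes lie at -0.53 and -0.49.

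Of 3 listed genes that give proteins of the cytosolic ribosome but do not follow the naming rule, 1 was lower with AD-MSC and 2 with UC-MSC. *Rack1*, listed as *Gnb2l1*, a signalling scaffold on the 40S head, was at -0.43 with AD-MSC and -0.71 with UC-MSC. *Fau*, whose product is made fused to a ubiquitin-like protein, was at 0.11 with AD-MSC and -0.15 with UC-MSC. Ribosomal protein pseudogenes outside the protein-coding class were lower for 49 of 52 with AD-MSC (median -0.35) and 47 of 52 with UC-MSC (median -0.46), which again are sequences that can share reads with the members.

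Canonical genes with a start in a pyrimidine run had medians of -0.29 with AD-MSC and -0.48 with UC-MSC (20 genes), and those with a listed promoter but no such start -0.33 and -0.49 (36 genes). Of the regulators, genes of the mTORC1 pathway and S6 kinases were near 0, with medians of -0.09 with AD-MSC and -0.11 with UC-MSC over 19 genes. *Larp1*, the TOP-binding protein, was at -0.18 with AD-MSC and -0.27 with UC-MSC, and *Mtor* at 0.07 and -0.01. *Myc*, an activator of ribosomal genes, was at -0.21 with AD-MSC and -0.68 with UC-MSC, while its antagonists *Mnt* and *Mxd1* were at 0.35 and 0.20 with AD-MSC and at 0.75 and 0.57 with UC-MSC. *Mxi1*, another antagonist, differed most of this list with AD-MSC, at 0.88, and was at 0.43 with UC-MSC. Over the 7 of 8 listed genes of the *Myc* family and its partners with enough reads, activators and antagonists together, the median was 0.13 with AD-MSC and 0.10 with UC-MSC. The authors listed *Mycn*, of the same family, as up at least 2-fold with both cell sources. None of the 7 compared genes was 2-fold higher with either, so *Mycn* was the listed gene with too few reads to be compared here. Targets of p53, which free ribosomal proteins can activate, had medians of -0.25 with AD-MSC and 0.04 with UC-MSC over 16 genes. Genes of the integrated stress response, which lowers translation, were at -0.06 with AD-MSC and 0.13 with UC-MSC over 12 genes. Of 12 snoRNA host genes with TOP starts only 3 were found in the table, and all 3 were above control with UC-MSC. *Gas5* was at 0.01 with AD-MSC and 0.03 with UC-MSC, *Snhg12* at 0.08 and 0.62, beyond the counting interval with UC-MSC, and *Snhg3*, with few reads, at -0.25 and 0.26.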

How the data were processed

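RNA of the middle colon, 3 mice per group (biological replicates per the labels), was made into libraries with the SMARTer Stranded Total RNA-Seq Pico kit and sequenced single-end on an Illumina HiSeq2500 by the authors, who left out RNA with an integrity number below their limit. The submitters' notes name bcl2fastq 1.8.4, DESeq (used by the authors) and GRCm38/mm10, and the methods name Strand NGS. The aligner is not given in the sources used here, and neither is the use of strand, so overlapping genes could not be told apart. The deposited signal column of each group was a geometric mean of raw reads made by the authors. The deposited log2 column was the authors' mean of log2 normalized reads over the 3 libraries. Above 50 raw reads the log2 difference of both columns was constant per group within 0.001 for at least 99.8% of genes. Single libraries were not analysed here, and the tests planned on them could not be run.

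Normalized reads are 2 to the power of the log2 column. Log2 group means were subtracted for genes that averaged 10 or more normalized reads, with no pseudocount, and the counting interval was taken from 3 times the raw mean of each group. Lengths were those of the shortest principal transcript in GENCODE M21, known for 107 of the 108 members. The members and gene lists were chosen with earlier results of these data known. Genes named are the 5 lowest and 5 highest differences of each comparison, the 5 highest and lowest levels, paralogs, members under the minimum and members of structural groups, and up to 4 genes of other lists. *Lgr5*, *Ascl2*, *Axin2*, *Ccnb1* and *Cdk1* are named as markers. *Mtor*, *Larp1*, *Nop58*, *Gas5*, *Mxd1*, *Mxi1*, *Rrp9*, *Snhg3*, *Snhg12*, *Fau* and a few more list genes were named for their role after their values were seen. Some genes that meet these rules are left out of the text and of the plot of single genes. The steps were tested on simulated data. Python 3.11.15, numpy 2.4.6, pandas 2.3.3 and matplotlib 3.10.9 were used.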

Additional observations from a re-analysis of the deposited data

How the results depend on the processing

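The members' median was below 0 in all 3 comparisons under each of 14 alternatives, from -0.38 to -0.17 for AD-MSC against control, from -0.63 to -0.26 for UC-MSC against control and from -0.30 to -0.13 for UC-MSC against AD-MSC. The median moved past counting error when centred within transcript length classes (-0.17 for AD-MSC and -0.26 for UC-MSC) and, for UC-MSC against control, when scaled to equal totals (-0.63). That scaling moved the median of all genes with UC-MSC to -0.15 and the share of all genes lower to 62.9%, against 51.8% without it, and for UC-MSC against AD-MSC to 61.3%, against 51.2%. Of the members, 53 were then at least 1.2-fold lower with UC-MSC than with AD-MSC (background 32.2%), against 29 without it (background 22.9%).

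Counts of lower genes changed by over 1.5 times where fewer members entered. With a minimum mean of 500 (38 members) 37, 36 and 34 were lower for AD-MSC and UC-MSC (each against control) and for UC-MSC against AD-MSC, and 21, 32 and 13 were 1.2-fold lower. Of all genes with that mean 49.6%, 53.6% and 54.4% were lower, and 14.5%, 20.3% and 18.2% were 1.2-fold lower. With the 45 members that overlap no other row 42, 43 and 36 were lower, and 34, 40 and 12 were 1.2-fold lower. The backgrounds over all genes compared were 51.0%, 51.8% and 51.2% lower, and 22.1%, 27.2% and 22.9% 1.2-fold lower. The 12 for UC-MSC against AD-MSC were 26.7% of the 45, a share near the background of 22.9%. With the 55 canonical genes with under 20% of reads on copies, an alternative chosen after seeing the data, 52, 54 and 51 were lower, and in comparison with control 32 (AD-MSC) and 49 (UC-MSC) were 1.2-fold lower. The backgrounds there were the same as for the 45 members. Centred by length class, 24, 46 and 18 of 92 were 1.2-fold lower, where 19.4%, 24.3% and 21.1% of other protein-coding genes were. For UC-MSC against AD-MSC the members' 19.6% was no more than the 21.1% of other protein-coding genes.

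Members beyond their counting interval that changed sign when centred by length class included *Rpl7a* (0.057), *Rpl10* (0.019), *Rpl17* (0.041), *Rpl21* (0.082), *Rpl22* (0.029), *Rpl29* (0.027), *Rpl31* (0.030) and *Rplp2* (0.13) with AD-MSC, and *Rpl31* (0.033), *Rpl36a* (0.063), *Rpl41* (0.042), *Rplp2* (0.17) and *Rps27* (0.095) with UC-MSC. *Rpl5* with UC-MSC was at -0.056 when scaled to equal totals. In the other settings the medians stayed within the single-gene limit given above and the counts within 1.5 times. These were a minimum mean of 50 or none, protein-coding genes or genes with reads in every library alone, and canonical members alone. They also included a pseudocount of 10, the mean in place of the median, centring on protein-coding genes and sums with copies.

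No paired analysis was possible because the values are group means. Likewise no library was left out in turn, and whether 1 mouse decides a value is unknown. Depth limits most the genes with few reads, such as *Rpl28*, *Rpl36*, *Rpl36a* and *Rps29*.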
